A study of Mus musculus with 22 samples.

Results

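The 8 genes described here encode enzymes of glycolysis that exist as liver and non-liver isozymes, and the glucose transporters that stand before them. They are Slc2a1 and Slc2a2 (the transporters GLUT1 and GLUT2), Hk1 and Hk2 (hexokinases), Aldoa (an aldolase), Pklr and Pkm (pyruvate kinases) and Ldha (a lactate dehydrogenase). They were taken by symbol, and 8 of 8 were found among the 24063 genes of a first table of liver tumours (set 1) and the 24019 genes of a second (set 2). All 8 passed the filter on low values in both sets.

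Glycolysis splits glucose into pyruvate, and several of its steps are run by different isozymes in different tissues. The adult hepatocyte takes up glucose through GLUT2 and makes pyruvate with the liver form of pyruvate kinase, whose gene is induced by dietary carbohydrate. Fetal liver, many other tissues and many liver tumours rely more on GLUT1, on hexokinases that bind glucose tightly, on aldolase A and on the M2 form of pyruvate kinase, and MYC is known to raise several of these genes.

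RNA was sequenced from 22 liver tumours of C57BL/6 mice. The tumours were started by hydrodynamic injection, in which a large volume of fluid carrying DNA is pushed quickly into a tail vein and reaches hepatocytes. All tumours carried MYC and came from untreated mice, and the groups differed in the second driver, a β-catenin construct (CTNNB1) or p53, and in the reporter, luciferase alone (luc) or lucOS, luciferase joined to model antigen peptides. Set 1 held 2 lucOS β-catenin, 4 luc β-catenin, 3 lucOS p53 and 3 luc p53 tumours, and set 2 held 3 lucOS β-catenin, 3 luc β-catenin and 4 lucOS p53 tumours. The labels give neither age nor sex. For p53 the titles of set 2 write sgp53, the usual form for a guide RNA against the gene, while those of set 1 write p53 alone. Whether any tumours shared a mouse is not stated either, and the p-values below then speak only of the spread among these samples.

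The recovered reads per tumour numbered 33706072 to 54872646 in set 1 and 33550553 to 50116323 in set 2. Trp53, the mouse gene of p53, had values of 3296 to 4994 in the β-catenin tumours and 1423 to 2280 in the p53 tumours of set 1, and of 2631 to 4405 in the β-catenin tumours and 1345 to 2223 in the p53 tumours of set 2, so the drivers did not overlap. Mouse Ctnnb1 had 15490 to 22460 in the β-catenin tumours and 22210 to 29240 in the p53 tumours of set 1, and 24220 to 25940 in the β-catenin tumours and 23510 to 35650 in the p53 tumours of set 2; the labels do not say from which species or form the injected β-catenin came, so this is no check of it. The ribosomal RNA precursor Rn45s took 8.9% of the reads in luc p53 tumour 1 of set 1, against 1.22% to 2.04% in the other 11 tumours of set 1. The 5 hepatocyte markers Alb, Ttr, Apoa1, Cps1 and Cyp3a11 had reads in every group. Their summed value was 731400 to 1025000 in the 6 β-catenin tumours of set 1, against 242200 to 665400 in its 6 p53 tumours, and it was 178500 to 931500 in the 6 β-catenin tumours of set 2, against 170100 to 385100 in its 4 p53 tumours. The summed value of 5 kidney tubule markers was 10.7 to 43.5 in the β-catenin tumours of set 1, against 73.7 to 5503 in the p53 tumours. In set 2, the p53 tumours 1 to 3 carry names that begin with AL, while p53 tumour 4 and all 6 β-catenin tumours carry names that begin with JAX; the labels do not say what the difference is, and it cannot be fully told apart from the driver there. In bulk tumours, fewer cells of a type and less RNA per cell cannot be told apart.

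Values are normalized read counts, comparable between tumours of a set but not between sets. Differences are in log2(value + 1), given as β-catenin minus p53, from limma fitted over all genes of a set, and a gene was called at a Benjamini-Hochberg adjusted p under 0.05. The median of all genes was itself shifted by -0.20 on this scale in luc tumours of set 1, by -0.15 in lucOS tumours of set 1 and by -0.16 in lucOS tumours of set 2, so a member's difference is read relative to that. Under TMM scaling, which centres these medians near 0, the luc comparison of set 1 had 1221 higher and 682 lower calls, where the authors' scaling had 956 higher and 1475 lower. The same counts were 317 and 197 against 261 and 417 in lucOS tumours of set 1, and 1317 and 1022 against 950 and 1706 in lucOS tumours of set 2.

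Between the drivers, 0 of the 8 genes were called in luc tumours of set 1, where 15.1% of all genes were called. Without luc p53 tumour 1, the tumour with the high Rn45s share, the calls over all genes were 812 in place of 2431, still 0 members were called, and the luc differences of Hk2 and Aldoa changed sign, to -0.075 and -0.38; the part of RNA quality was not tested. None was called in lucOS tumours of set 1 either, where the share over all genes was 4.21%. In lucOS tumours of set 2, 1 gene was called, Hk1, which was lower in β-catenin tumours, and 17% of all genes were called. Averaged over lucOS and luc in set 1, 2 genes were called, Pklr higher and Pkm lower in β-catenin tumours, against 28.3% of all genes. At an unadjusted p under 0.05, limma gave 3 genes in luc tumours of set 1 (Pklr, Pkm and Slc2a2), 1 in lucOS tumours of set 1 (Hk2) and 4 in lucOS tumours of set 2 (Hk1, Hk2, Aldoa and Pkm). At the adjusted threshold, edgeR called 0 members in each of these 3 comparisons, and DESeq2 called 2, 1 and 3 in the same order. By the limma calls, the share of members called was below that of all genes in each comparison. With only 8 members, 1 call more or less moves this share widely, so it is not read as a difference from all genes. Under DESeq2 the share of members was not below that of all genes in every comparison. Over all genes, 5237, 3809 and 5387 had an unadjusted p under 0.05 by limma in these 3 comparisons. There edgeR called 1785, 418 and 2230, and DESeq2 called 3303, 2031 and 3842. Genes tested were 16108 in set 1 and 15625 in set 2. The averaged comparison uses the same tumours as its luc and lucOS arms. How many of all genes separate the drivers without overlap was not counted, so such separations below are descriptions only.

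**Figure D1:**
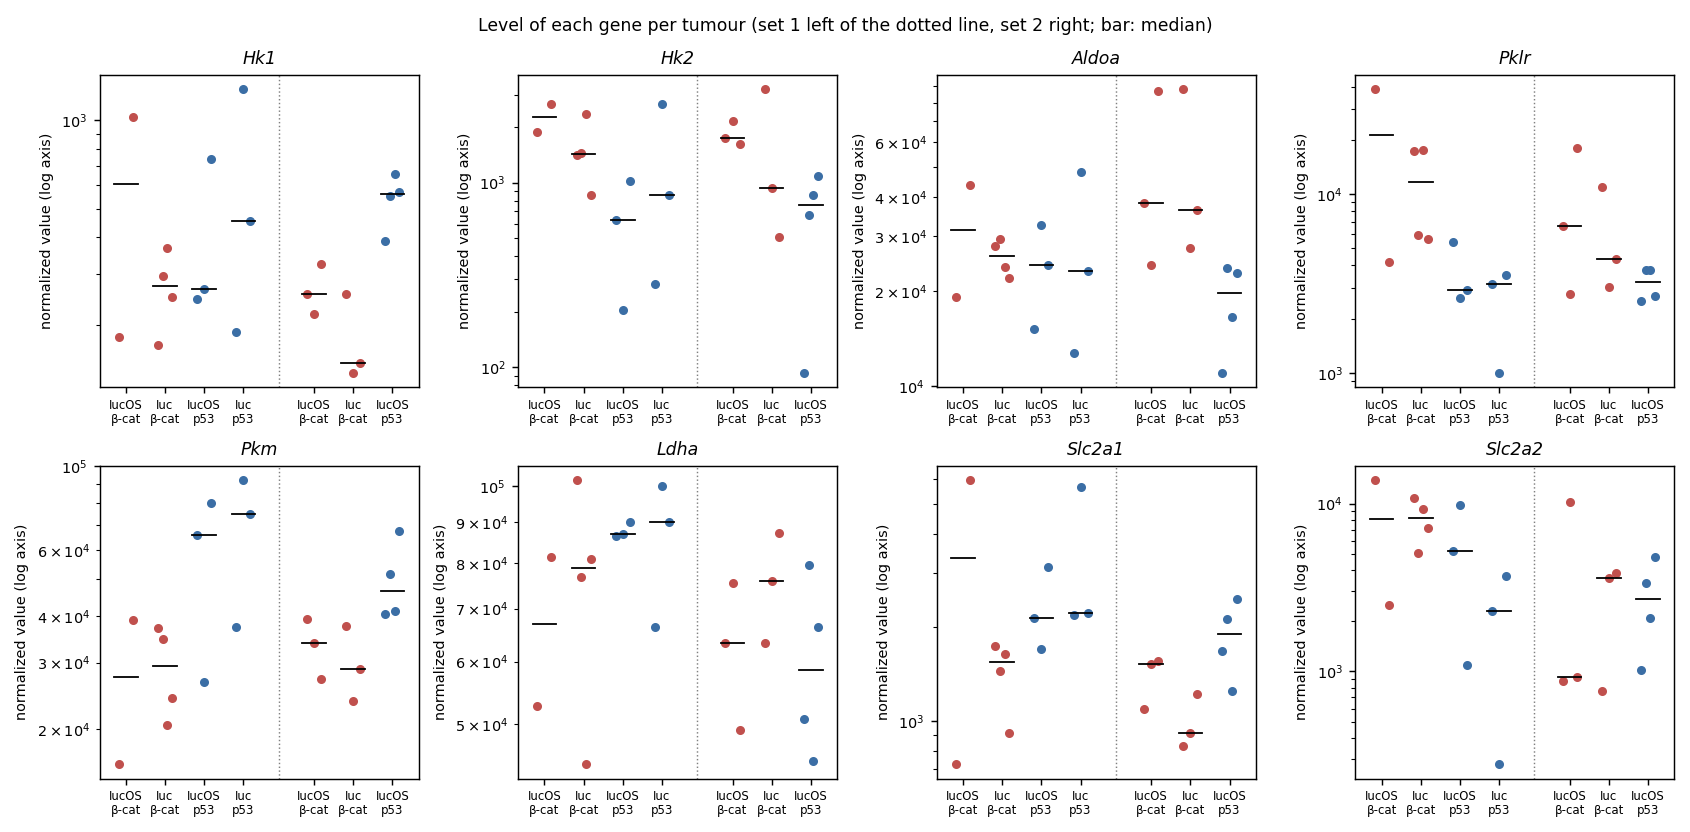
Normalized value (log axis) of each gene in each tumour, by group, with lucOS β-catenin, luc β-catenin, lucOS p53 and luc p53 tumours of set 1 left of the dotted line and set 2 right of it; red points are β-catenin tumours, blue points p53 tumours, and bars are group medians. Hk1, Pkm and Aldoa in set 2 separate the drivers completely, while Ldha spans little and Slc2a2 spans 279.1 to 13820 in set 1. The share of all genes that separate the drivers in this way was not counted.

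Slc2a2, the transporter of the adult hepatocyte, was the most variable of the 8 genes in set 1, with a highest value 49.5 times its lowest. In set 1 it had values of 13820 and 2475 in the lucOS β-catenin tumours, 10800, 5094, 9299 and 7121 in the luc β-catenin tumours, 5242, 9846 and 1091 in the lucOS p53 tumours and 2279, 279.1 and 3712 in the luc p53 tumours. All 4 luc β-catenin tumours lay above all 3 luc p53 tumours, while the lucOS groups overlapped. The luc difference was 2.54 (95% confidence interval 0.48 to 4.61, limma adjusted p = 0.088), and the lucOS difference was 0.61 (-1.86 to 3.08, limma adjusted p = 0.789). DESeq2 called the luc difference (2.13, DESeq2 adjusted p = 0.044), and edgeR did not. In set 2 the values were 880.5, 10180 and 921.6 in lucOS β-catenin tumours, 763.6, 3620 and 3882 in luc β-catenin tumours and 1024, 3366, 2071 and 4793 in lucOS p53 tumours. The lowest 3 values of set 2 were all in β-catenin tumours, and so was the highest. The lucOS difference in set 2 was -0.26 (-2.33 to 1.82, limma adjusted p = 0.869), and it was 0.65 under both edgeR and DESeq2, so its direction was not settled.

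Slc2a1, the transporter of brain barriers and many tumours, ran the other way in luc tumours of set 1. Its values there were 724.2 and 5952 in lucOS β-catenin tumours, 1736, 1449, 1638 and 911.3 in luc β-catenin tumours, 2148, 1699 and 3121 in lucOS p53 tumours and 2190, 5657 and 2222 in luc p53 tumours. The 4 luc β-catenin tumours lay below all 3 luc p53 tumours, and the lucOS groups overlapped because lucOS β-catenin tumours 1 and 2 held the lowest and the highest value of the set. Without lucOS β-catenin tumour 2, the averaged difference of Slc2a1 was -1.38 and was called (limma adjusted p = 0.0217), against -0.62 (limma adjusted p = 0.359) with it. Without lucOS β-catenin tumour 1 its sign changed, to 0.14 (limma adjusted p = 0.786), so the direction rested on these 2 tumours. LucOS β-catenin tumour 2 also had the highest fibroblast and stellate marker sum of set 1, 117200 over 6 markers, against 9094 to 52170 in the others. Its endothelial sum of 13680 over 5 markers was the highest too, against 2228 to 10760. The part of these cells in the Slc2a1 value was not tested.

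In set 2, Slc2a1 had values of 1094, 1528 and 1559 in lucOS β-catenin tumours, 830.2, 911.4 and 1221 in luc β-catenin tumours and 1678, 2120, 1250 and 2473 in lucOS p53 tumours. Of the 6 β-catenin tumours, 4 lay below all p53 tumours. The lucOS difference was -0.40 (-0.97 to 0.16, limma adjusted p = 0.285).

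Hk2, the hexokinase of muscle, fat and many tumours, was higher in the lucOS β-catenin tumours than in every lucOS p53 tumour of both sets, without passing the adjusted test. In set 1 its values were 1875 and 2681 in lucOS β-catenin tumours, 1420, 1444, 2369 and 861.4 in luc β-catenin tumours, 631, 204.1 and 1024 in lucOS p53 tumours and 282.4, 2662 and 852.4 in luc p53 tumours. The luc groups overlapped through luc p53 tumour 2 alone, which held the second highest value of the set. Between lucOS groups the difference was 2.14 (0.29 to 3.98, limma adjusted p = 0.155) and the luc difference 0.73 (-0.82 to 2.27, limma adjusted p = 0.5).

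In set 2, Hk2 had values of 1739, 2156 and 1625 in lucOS β-catenin tumours, 3227, 932.8 and 508 in luc β-catenin tumours and 93.09, 665.2, 853.6 and 1093 in lucOS p53 tumours. The lucOS groups did not overlap, while 2 luc β-catenin tumours lay within the p53 range. This lucOS difference was 1.89 (0.02 to 3.76, limma adjusted p = 0.141), and it ran from 1.10 to 2.28 leaving out 1 tumour at a time. Among the tumours with JAX names alone, with 1 p53 tumour left, it was smaller, at 0.74. Averaged over both reporters in set 1 the Hk2 difference was 1.43 (limma adjusted p = 0.072). Leaving out 1 tumour at a time it ran from 1.03 to 1.84. It was called in 1 of these 12 cases, without luc p53 tumour 2 (1.84, limma adjusted p = 0.0195).

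Hk1, the hexokinase of brain, red blood cells and leukocytes, fell in lucOS β-catenin tumours of set 2 relative to lucOS p53 tumours. Its values there were 255.4, 218.9 and 325 in lucOS β-catenin tumours, 256.9, 137.7 and 149.2 in luc β-catenin tumours and 388.8, 552.9, 655.7 and 570.3 in lucOS p53 tumours. All 6 β-catenin tumours lay below all 4 p53 tumours. The lucOS difference was -1.02 (-1.66 to -0.37, limma adjusted p = 0.0392). It was -0.86 under TMM scaling (adjusted p = 0.0774), and leaving out 1 tumour at a time lost the call in 6 of 7 cases, the exception being p53 tumour 1, with differences of -1.17 to -0.88 in the 6. Among the tumours with JAX names alone, with 1 p53 tumour left, it was -1.11 (limma adjusted p = 0.573). The summed value of 6 T cell markers was also lower in β-catenin tumours of set 2. It was 52.8 to 189.2 in β-catenin tumours, against 281.6 to 710.2 in p53 tumours. The sums of 5 kidney tubule markers, 6.58 to 338.4 in β-catenin tumours against 1943 to 7093 in p53 tumours, and of 5 endothelial markers, 2566 to 5510 in β-catenin tumours against 5835 to 8359 in p53 tumours, did not overlap either. The part of any of these cells in the Hk1 result was not tested.

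In set 1, Hk1 had values of 182.1 and 1028 in lucOS β-catenin tumours, 171.1, 294.4, 367.9 and 249.5 in luc β-catenin tumours, 246.7, 265.9 and 740.8 in lucOS p53 tumours and 190.1, 1282 and 455 in luc p53 tumours. The groups overlapped for both reporters, and the 2 highest values, 1282 and 1028, stood in luc p53 tumour 2 and lucOS β-catenin tumour 2. The difference was -0.88 in luc tumours (-2.44 to 0.68, limma adjusted p = 0.415) and 0.25 in lucOS tumours (-1.62 to 2.11, limma adjusted p = 0.893). The tumours with the highest Hk1 values, luc p53 tumour 2 and lucOS β-catenin tumour 2, were also the 2 highest for Slc2a1, Hk2 and Aldoa in set 1. Luc p53 tumour 2 had the highest neutrophil marker sum, 1977 over 4 markers found, against 20.5 to 695 in the other tumours of set 1, and the highest red blood cell sum, 27160 over 7 markers, against 1807 to 19760. The part of these cells in its values was not tested.

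**Figure D2:**
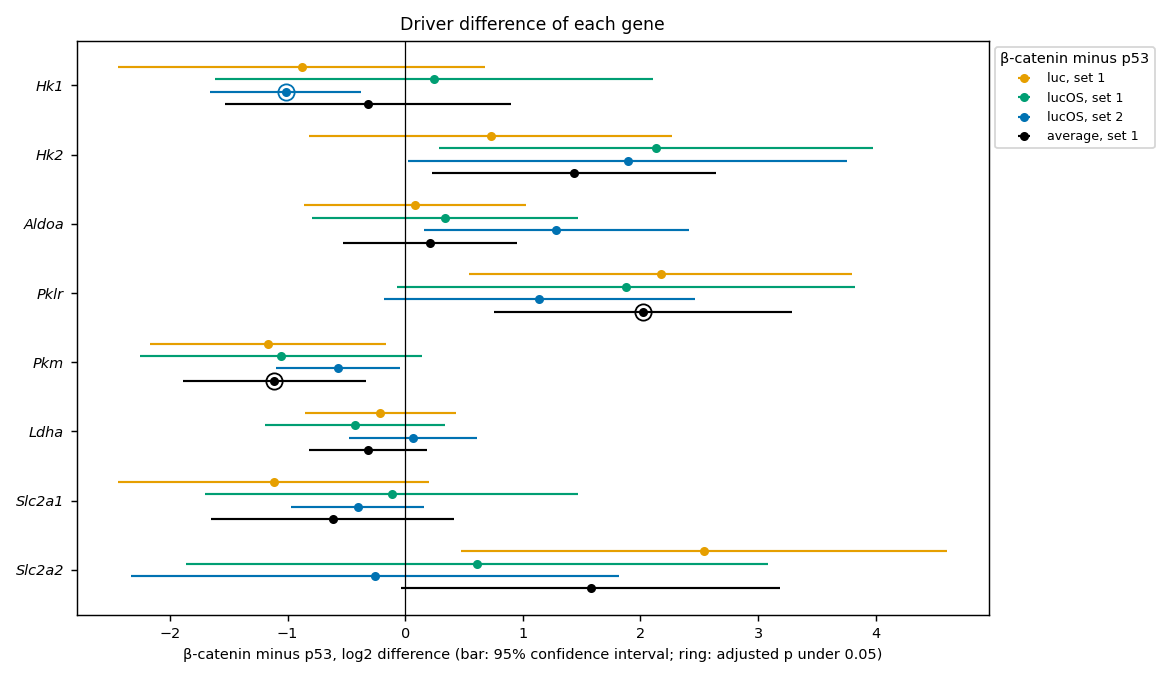
Difference between β-catenin and p53 tumours in log2(value + 1) for each gene, from limma, in luc tumours of set 1, lucOS tumours of set 1, lucOS tumours of set 2 and averaged over reporters in set 1; bars are 95% confidence intervals and rings mark an adjusted p under 0.05. Rings stand at Hk1 in set 2 (-1.02) and at Pklr (2.02) and Pkm (-1.11) in the average, and most intervals are wider than 2 units.

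The balance of the hexokinases within a tumour separated the drivers in set 2, and in set 1 the drivers nearly touched. Per kilobase of transcript, the ratio of Hk2 to Hk1 was 7.99 and 2.02 in lucOS β-catenin tumours, 6.44, 3.81, 5 and 2.68 in luc β-catenin tumours, 1.98, 0.596 and 1.07 in lucOS p53 tumours and 1.15, 1.61 and 1.45 in luc p53 tumours of set 1. In set 2 it was 5.28, 7.64 and 3.88 in lucOS β-catenin tumours, 9.75, 5.26 and 2.64 in luc β-catenin tumours and 0.186, 0.934, 1.01 and 1.49 in lucOS p53 tumours. All β-catenin tumours lay above all p53 tumours of their set, by a narrow gap in set 1 (2.02 against 1.98) and a wider one in set 2 (2.64 against 1.49). At the gap of set 1, lucOS β-catenin tumour 2 had 825 Hk1 reads and lucOS p53 tumour 1 had 276. Counts of this size do not settle so small a gap, so set 1 alone does not show a separation. The ratios were formed after the members' values had been seen and carry no test; transcript lengths for set 2 were taken from the transcripts of set 1.

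Aldoa, the aldolase of muscle and fetal liver, was higher in β-catenin than in p53 tumours of set 2 without overlap, but not in set 1. In set 2 its values were 38390, 24280 and 87090 in lucOS β-catenin tumours, 88510, 27520 and 36410 in luc β-catenin tumours and 10980, 23780, 16620 and 22920 in lucOS p53 tumours. The lowest β-catenin value, 24280, was just above the highest p53 value, 23780. For lucOS tumours the difference was 1.29 (0.16 to 2.41, limma adjusted p = 0.103). DESeq2 called this difference (1.59, DESeq2 adjusted p = 0.0151), and edgeR did not. In set 1 the 6 β-catenin tumours had 19170 to 43740 and the 6 p53 tumours 12690 to 48080, and the averaged difference was 0.21 (-0.53 to 0.95, limma adjusted p = 0.681).

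**Figure D3:**
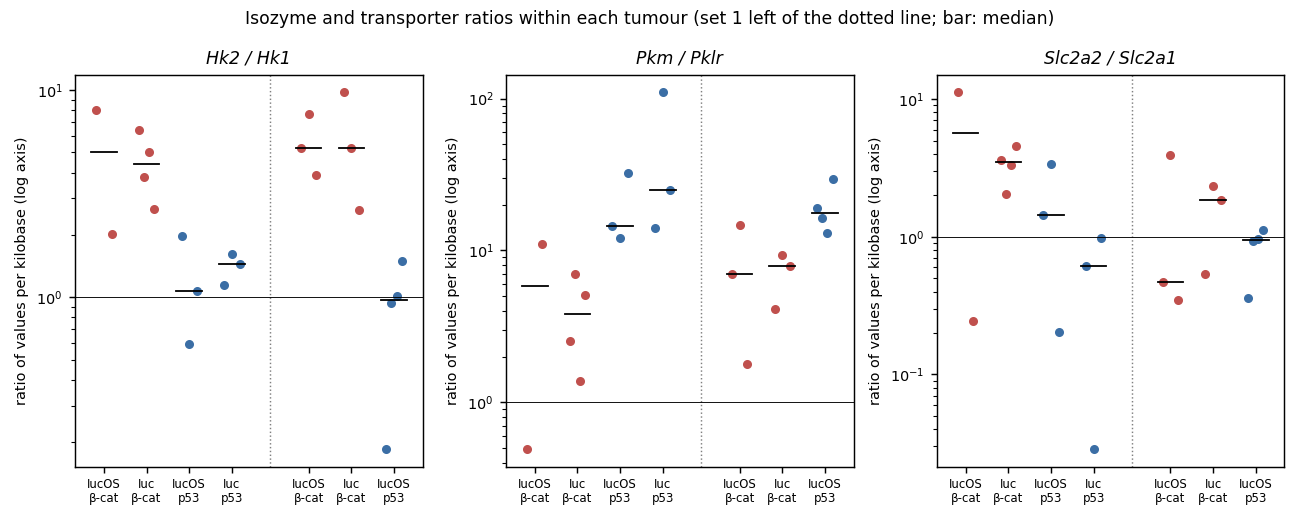
Ratio of values per kilobase (log axis) within each tumour for 3 pairs, Hk2 to Hk1, Pkm to Pklr and Slc2a2 to Slc2a1, by group, with set 1 left of the dotted line; red points are β-catenin tumours, blue points p53 tumours, and bars are medians. Hk2 to Hk1 separates the drivers in set 2, while in set 1 they nearly touch, at 2.02 against 1.98. Pkm to Pklr separates them in set 1 with β-catenin tumours at 0.494 to 11.1 and p53 tumours at 12.1 to 110. Slc2a2 to Slc2a1 overlaps over all tumours of a set.

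Pklr, which encodes the liver and red blood cell forms of pyruvate kinase, rose in β-catenin tumours of set 1 when both reporters were averaged. Its values were 38880 and 4187 in lucOS β-catenin tumours, 17370, 5897, 17750 and 5636 in luc β-catenin tumours, 5421, 2637 and 2927 in lucOS p53 tumours and 3161, 998.6 and 3532 in luc p53 tumours. The luc groups did not overlap, and in the lucOS groups the lower β-catenin value fell within the p53 range. The averaged difference was 2.02 (0.76 to 3.29, limma adjusted p = 0.0242), and it was 2.17 in luc tumours (0.54 to 3.8, limma adjusted p = 0.0689) and 1.88 in lucOS tumours (-0.07 to 3.82, limma adjusted p = 0.229). DESeq2 called the luc difference (2.37, adjusted p = 0.00666) and the lucOS difference (2.73, adjusted p = 0.0155). The averaged call was lost without luc p53 tumour 2 (1.73, limma adjusted p = 0.0517) or without lucOS β-catenin tumour 1 (1.22, limma adjusted p = 0.115). The summed hepatocyte markers given above were also higher in all β-catenin than in all p53 tumours of set 1. Of the 5 markers, limma called 2 higher in luc and 0 in lucOS tumours, against 15.1% and 4.21% of all genes. The sum therefore does not speak for each marker, and the part of these markers in the Pklr difference was not tested.

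In set 2, Pklr had values of 6629, 2760 and 18180 in lucOS β-catenin tumours, 10900, 3042 and 4355 in luc β-catenin tumours and 2534, 3771, 3768 and 2710 in lucOS p53 tumours. Of the 6 β-catenin tumours, 4 lay above all p53 tumours, and 2 lay among them. The lucOS difference was 1.14 (-0.18 to 2.46, limma adjusted p = 0.201). DESeq2 called this difference (1.69, DESeq2 adjusted p = 0.0249), and edgeR did not. The 2 tumours with the highest Pklr in set 2, lucOS β-catenin tumour 3 and luc β-catenin tumour 1, also had its 2 highest Aldoa values, 87090 and 88510, and Slc2a2 values of 921.6 and 763.6, the third lowest and the lowest. In set 1 the tumour with the highest Pklr, lucOS β-catenin tumour 1, instead had the highest Slc2a2, 13820, and the lowest Pkm and Slc2a1. The hepatocyte marker sums of the 2 tumours of set 2 were 433900 and 178500, against 852200 in that tumour of set 1, values that were scaled separately by set.

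Pklr stands on chromosome 3 (89136142 to 89146784, plus strand, GRCm38), and has alternative first exons for its red cell and liver forms. The promoter of the liver form, chr3:89136373-89136672 on the plus strand, is shown because it carries the carbohydrate response element known from this gene; the capitals mark that element, at position -170 from the start, and a TATAAA box at -31 (RefSeq, GRCm38.p6).
Pklr liver promoter: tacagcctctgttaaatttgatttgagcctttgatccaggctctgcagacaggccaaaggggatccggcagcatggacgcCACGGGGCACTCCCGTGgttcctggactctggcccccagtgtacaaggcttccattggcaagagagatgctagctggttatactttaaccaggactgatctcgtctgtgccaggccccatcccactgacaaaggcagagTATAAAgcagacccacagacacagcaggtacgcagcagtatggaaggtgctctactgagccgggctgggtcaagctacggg
The element, written CACGGGNNNNNCCCGTG and searched on both strands, occurred in 1 of 32851 promoters of 300 bases, or 0.00304%, and its looser form CACGNGNNNNNCNCGTG in 0.0457%. TATAAA occurred in 13.6%. The patterns were chosen after the sequences had been seen, further looser carbohydrate and HNF1-like patterns were tried and not kept, and a match in letters is a description only. In set 1 the rows of the 2 Pklr transcripts had equal reads in 11 of the 12 tumours and differed by 1 read in lucOS β-catenin tumour 1, although their first exons are 141 and 66 bases long and lie apart, so the deposited values do not separate the forms.

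Pkm, which encodes the M1 and M2 forms of pyruvate kinase, fell in β-catenin tumours of set 1 averaged over reporters. Its values were 16080 and 38950 in lucOS β-catenin tumours, 37070, 34760, 20500 and 24090 in luc β-catenin tumours, 65850, 26690 and 79820 in lucOS p53 tumours and 37280, 92020 and 74540 in luc p53 tumours. The luc groups did not overlap, by a gap of 37070 to 37280, and lucOS p53 tumour 2 lay among the β-catenin tumours. The averaged difference was -1.11 (-1.89 to -0.33, limma adjusted p = 0.0382). It was -0.94 under TMM scaling (adjusted p = 0.0734), and leaving out 1 tumour at a time lost the call in 7 of 12 cases, with differences from -1.07 without luc β-catenin tumour 4 to -0.79 without lucOS β-catenin tumour 1. The other 5 of these were lucOS p53 tumours 1 and 3, luc p53 tumours 2 and 3, and luc β-catenin tumour 3.

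In set 2, Pkm had values of 39110, 33940 and 27110 in lucOS β-catenin tumours, 37650, 23780 and 28800 in luc β-catenin tumours and 40450, 51790, 41310 and 67430 in lucOS p53 tumours. All 6 β-catenin tumours lay below all 4 p53 tumours. The lucOS difference was -0.57 (-1.10 to -0.05, limma adjusted p = 0.116). The per-kilobase ratio of Pkm to Pklr was 0.494 and 11.1 in lucOS β-catenin tumours, 2.55, 7.03, 1.38 and 5.1 in luc β-catenin tumours, 14.5, 12.1 and 32.5 in lucOS p53 tumours and 14.1, 110 and 25.2 in luc p53 tumours of set 1. Pklr exceeded Pkm in 1 tumour only of the 22, lucOS β-catenin tumour 1 of set 1. In set 2 the ratio was 1.78 to 14.7 in β-catenin tumours and 13.1 to 29.7 in p53 tumours, which overlapped through lucOS β-catenin tumour 2.

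The M2 and M1 messages of Pkm differ in 1 exon of 167 bases each, chosen by splicing. The exons are shown because they are the part that tells the messages apart; they are identical at 103 of 167 positions, and the capitals mark the positions that differ. The M2 exon lies at chr9:59675568-59675734 and the M1 exon at chr9:59675029-59675195, both on the plus strand (GRCm38, GENCODE transcripts).
Pkm M2 exon: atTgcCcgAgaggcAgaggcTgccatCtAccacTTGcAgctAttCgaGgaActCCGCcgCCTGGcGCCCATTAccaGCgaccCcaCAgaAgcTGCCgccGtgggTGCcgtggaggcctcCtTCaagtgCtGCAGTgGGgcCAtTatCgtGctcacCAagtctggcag
Pkm M1 exon: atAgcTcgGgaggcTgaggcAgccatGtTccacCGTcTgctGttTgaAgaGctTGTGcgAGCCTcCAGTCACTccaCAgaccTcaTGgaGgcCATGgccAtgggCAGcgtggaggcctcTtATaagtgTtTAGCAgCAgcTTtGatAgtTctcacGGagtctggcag
In set 1 the M2 row of Pkm held 524 to 3206 reads more than the M1 row in 12 of 12 tumours, which was 2.45% to 3.33% of the M2 row. The transcripts also differ in GENCODE by 205 bases at the 5′ end and 186 at the 3′ end, and most reads fall in shared exons and are in both rows, so the surplus is not a share of isoforms. It was 2.45% to 3.33% in β-catenin and 2.61% to 3.31% in p53 tumours, and these overlapped. Of the 4 proteins known to direct this exon choice, Ptbp1, Hnrnpa1, Hnrnpa2b1 and Srsf3, 4 fell in the averaged comparison of set 1, where 28.3% of all genes were called and 2994 of the 4562 calls were lower. They fell by 0.63, 0.72, 0.56 and 0.80 on the log2 scale (limma adjusted p = 0.00668, 0.0153, 0.03 and 0.00531). Under TMM scaling 2 of them, Ptbp1 and Srsf3, were called, edgeR called 2 and DESeq2 called 3. Of the arms of that average, luc tumours had 2 called by limma, Ptbp1 and Srsf3. There the count was 0 under TMM scaling, 0 by edgeR and 2 by DESeq2. LucOS tumours of set 1 had 0 called by limma, with 4 at an unadjusted p under 0.05, 0 by edgeR and 0 by DESeq2. None was called by limma in lucOS tumours of set 2, with 3 at an unadjusted p under 0.05 and 0 by edgeR and by DESeq2.

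Ldha, which turns pyruvate into lactate and is a known MYC target, varied least of the 8 genes. Its highest value was 2.29 times its lowest in set 1 and 1.94 times in set 2. In set 1 it had 52690 and 81240 in lucOS β-catenin tumours, 101800, 76800, 44470 and 80970 in luc β-catenin tumours, 86430, 86980 and 90040 in lucOS p53 tumours and 66390, 100000 and 90130 in luc p53 tumours. The lucOS groups did not overlap, with both β-catenin tumours below, and the luc groups did. The averaged difference was -0.32 (-0.82 to 0.18, limma adjusted p = 0.327), and the lucOS difference in set 2 was 0.07 (-0.47 to 0.61, limma adjusted p = 0.872), with 49180 to 75430 in lucOS β-catenin tumours and 44960 to 79450 in lucOS p53 tumours.

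Of the promoters of the 8 genes, 14 in all, that of Ldha at chr7:46845554-46845853 (plus strand, GRCm38.p6, RefSeq) was the only one with CACGTG, the E-box letters that MYC is known to bind. It is shown with its 2 copies in capitals, at -145 and -48 from the start.
Ldha promoter: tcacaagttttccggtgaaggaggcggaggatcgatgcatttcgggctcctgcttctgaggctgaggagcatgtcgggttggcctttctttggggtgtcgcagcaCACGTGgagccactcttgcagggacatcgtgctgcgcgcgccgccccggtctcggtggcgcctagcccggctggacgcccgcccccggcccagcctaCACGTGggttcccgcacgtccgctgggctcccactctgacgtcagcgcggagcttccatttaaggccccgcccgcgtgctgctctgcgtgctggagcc
CACGTG was present in 7.15% of all 32851 promoters. Every tumour carried MYC, so these data hold no group without it.

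Set side by side per kilobase, the order of the 8 genes by median over set 1 was Ldha (46200), Aldoa (15600), Pkm (15300), Pklr (1660), Slc2a2 (928), Slc2a1 (596), Hk2 (222) and Hk1 (65.5). The order was the same in set 2. The ranges of neighbours in this order overlapped for 7 of 7 pairs in set 1 and 6 of 7 in set 2, the exception being Pkm and Pklr. Over all 22 tumours, after centring each gene within its set, likeness of pattern was measured as the root mean square difference in log2(value + 1), among 11433 genes with a mean value of at least 100 in both sets. Nearest to Slc2a2, which itself varied by 1.40, were Uox (0.62) and Spata2l (0.72). For Slc2a1, with a variation of 0.72, the nearest were Ppp1r15a (0.28) and Fam107b (0.42). Nearest to Hk2, which itself varied by 1.24, were P2ry2 (0.74) and Lclat1 (0.82). For Hk1, with a variation of 0.86, the nearest were Upp1 (0.33) and Ptpre (0.35). Nearest to Aldoa, which itself varied by 0.73, were Tmem50b (0.40) and Tax1bp3 (0.41). For Pklr, with a variation of 1.19, the nearest were Aldh3a2 (0.61) and Gm10768 (0.65). Nearest to Pkm, which itself varied by 0.65, were Zfp516 (0.28) and Gdpd1 (0.34). For Ldha, with a variation of 0.33, a near one was Zfp444 (0.24). Among the members themselves, Slc2a1 and Pkm were closest, at 0.52.

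**Figure D4:**
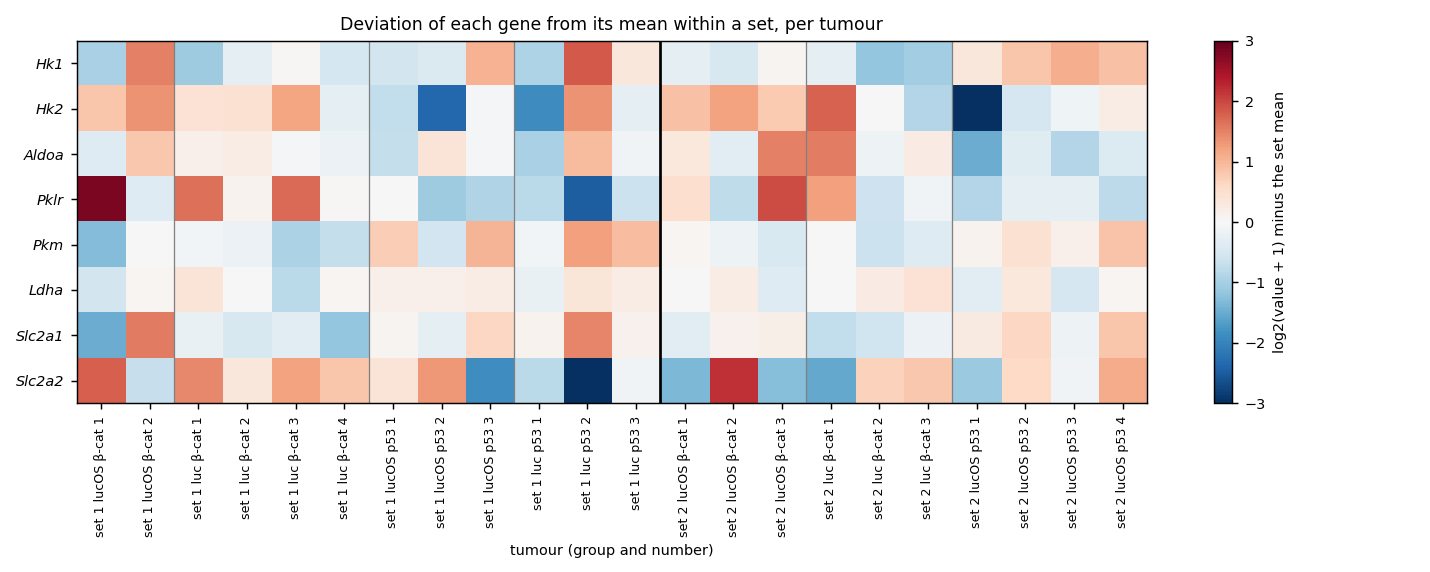
Deviation of each gene from its mean within a set, in log2(value + 1), per tumour, with set 1 left of the thick line and set 2 right of it and groups divided by thin lines; red is above and blue below the mean, with colours saturated at 3 units. Luc p53 tumour 2 and lucOS β-catenin tumour 2 of set 1 share high Hk1, Hk2, Aldoa and Slc2a1, and the first has the lowest Pklr and Slc2a2 of set 1.

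Between lucOS and luc tumours, 0 of the 8 genes were called by limma in p53 tumours of set 1, in β-catenin tumours of set 1 or in β-catenin tumours of set 2, and 0% of all genes were called in each. No member passed an unadjusted p under 0.05 in any of the 3, and edgeR and DESeq2 called 0 members. The members' differences, lucOS minus luc, ran from -0.76 (Hk2) to 1.52 (Slc2a2) in p53 tumours of set 1, from -0.41 (Slc2a2) to 0.73 (Hk1) in β-catenin tumours of set 1, and from -0.28 (Ldha) to 0.66 (Hk2) in those of set 2. Over all genes, limma gave 722, 222 and 288 genes at an unadjusted p under 0.05 in these comparisons, edgeR called 0 in each and DESeq2 9, 18 and 10. The test of whether the driver difference itself depended on lucOS in set 1 called 0 members and 0% of all genes, with 436 genes at an unadjusted p under 0.05, 0 called by edgeR and 17 by DESeq2. Its widest member value was -1.93 for Slc2a2 (95% confidence interval -5.15 to 1.29, limma adjusted p = 1), so a dependence of several units in either direction lay within its interval.

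Around the 8 genes, 12 lists held 74 other genes of glucose metabolism and its regulators, of which 73 passed the filter. In luc tumours of set 1, 10 rose and 9 fell in β-catenin relative to p53 tumours, which was 26% of those kept, against 15.1% of all genes; under TMM scaling 10 were higher and 4 lower. For lucOS tumours of set 1 the counts were 3 higher and 0 lower, or 4.11% against 4.21% of all genes, and again 3 and 0 under TMM scaling. In lucOS tumours of set 2, 8 rose and 4 fell, or 16.4% against 17% of all genes, and under TMM scaling 8 were higher and 3 lower. The shares in lucOS tumours were thus near those of all genes. Those past the threshold in at least 2 of these comparisons were Fbp1, Pdk2, Slc2a4, Pfkfb1, Eno2, Slc16a7, Ldhd and Tkfc.

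Pdk2, a kinase that shuts pyruvate dehydrogenase, rose in all 3 comparisons, by 2.20 in luc tumours and 2.31 in lucOS tumours of set 1 and by 3.94 in lucOS tumours of set 2 (limma adjusted p = 0.00209, 0.0145 and 0.0039). Its values were 3272 to 7447 in the β-catenin tumours of set 1, against 793.3 to 1396 in the p53 tumours, and 1966 to 5850 in the β-catenin tumours of set 2, against 108.1 to 712.1 in the p53 tumours, with no overlap in either set. Its list, the entry of pyruvate into mitochondria, had 2 of 8 genes called in luc tumours of set 1 (Pdk2 and Pdk4, both higher), 1 in lucOS tumours of set 1 and 2 in lucOS tumours of set 2 (Pdk2 and Mpc1, both higher), where 15.1%, 4.21% and 17% of all genes were called. With lists this short, a count of 1 or 2 is close to those shares.

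Ldhd, a mitochondrial dehydrogenase of D-lactate, also rose in all 3, by 1.85, 2.01 and 1.73 in the same order (limma adjusted p = 0.00739, 0.0283 and 0.00406). Slc16a7, the monocarboxylate transporter MCT2, rose by 1.94 in luc tumours of set 1 and 3.08 in lucOS tumours of set 2 (limma adjusted p = 0.00901 and 0.00885). With Ldhb, which rose in set 2, they made up the called members of the lactate list, 2, 1 and 3 of 6 genes in the 3 comparisons, against 15.1%, 4.21% and 17% of all genes, while Ldha itself was not called in any.

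Fbp1, the fructose bisphosphatase of gluconeogenesis, rose by 4.91 in luc tumours of set 1 and 1.82 in lucOS tumours of set 2 (limma adjusted p = 0.00647 and 0.0335). Its values were 9659 to 20470 in luc β-catenin tumours and 135.8 to 1935 in luc p53 tumours of set 1. Pfkfb1, the liver form of the enzyme that makes and breaks fructose 2,6-bisphosphate, rose by 3.12 and 2.34 in the same comparisons (limma adjusted p = 0.00392 and 0.00254). Tkfc, which phosphorylates the glyceraldehyde made from fructose, rose by 1.47 in luc and 1.84 in lucOS tumours of set 1 (limma adjusted p = 0.0294 and 0.0492), and its difference in set 2 was 0.25 (limma adjusted p = 0.623).

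Slc2a4, the insulin-responsive transporter GLUT4 of muscle and fat, fell by 3.37 in luc tumours of set 1 and 2.28 in lucOS tumours of set 2 (limma adjusted p = 0.00408 and 0.0427). Its values were 11.1 to 29.0 in luc β-catenin tumours and 113.8 to 369.3 in luc p53 tumours of set 1. Eno2, the enolase of neurons, fell by 3.30 and 2.31 in the same comparisons (limma adjusted p = 0.0361 and 0.00934). The summed value of 7 skeletal muscle markers was 94.0 to 539.4 in luc β-catenin tumours, against 1365 to 6125 in luc p53 tumours of set 1. In set 2 it was 196.5 to 413.1 in lucOS β-catenin tumours, against 540.2 to 2911 in lucOS p53 tumours. Only 4 of these markers passed the filter in either set, and 1 was called, lower, in each comparison. Their median difference was -0.27 in luc tumours of set 1. It was 0.62, the other way, in lucOS tumours of set 2, so the sums do not speak for all markers. The part of muscle cells in these results was not tested. Leaving out 1 tumour at a time, the call was lost in 7 of 7 cases for Eno2 and 6 of 7 for Tkfc in luc tumours of set 1, in 4 of 5 for Ldhd and for Tkfc and 1 of 5 for Pdk2 in lucOS tumours of set 1, and in 5 of 7 for Fbp1 and 6 of 7 for Slc2a4 in lucOS tumours of set 2. The set 2 call of Slc2a4 was lost in 12 of 14 alternatives in all, with adjusted p-values of 0.0587 under TMM scaling, 0.0524 under edgeR, 0.0523 with a pseudocount of 10, 0.0555 with no filter and 0.0683 with only the groups compared. The lucOS call of Tkfc in set 1 was lost in 8 of 12. The other lists had at most 2 genes called in either direction in each of these 3 comparisons.

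**Figure D5:**
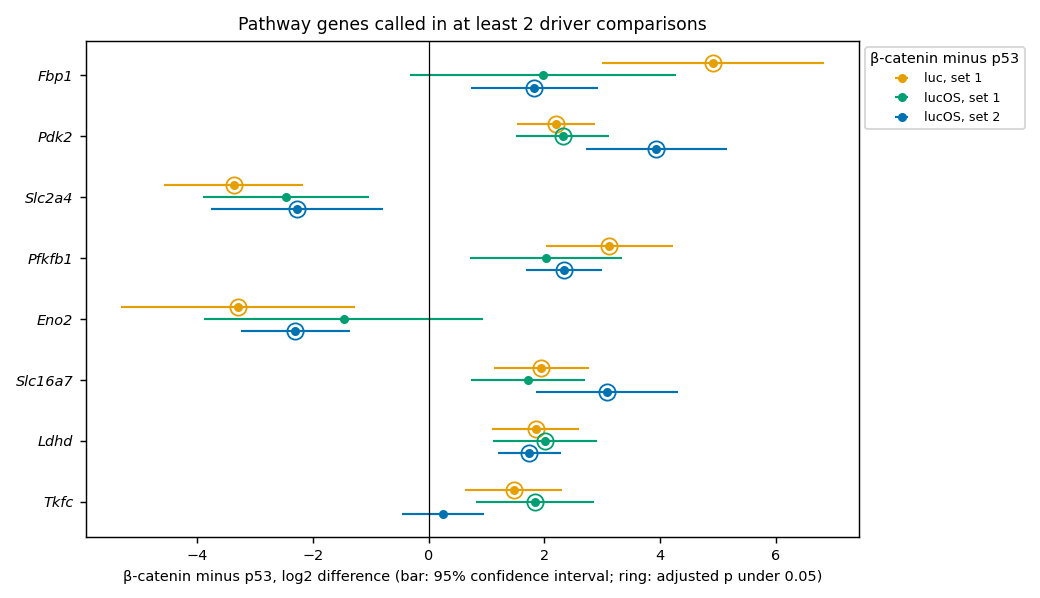
Difference between β-catenin and p53 tumours in log2(value + 1) for the 8 pathway genes past the threshold in at least 2 comparisons, from limma, in luc tumours of set 1, lucOS tumours of set 1 and lucOS tumours of set 2; bars are 95% confidence intervals and rings mark an adjusted p under 0.05. Pdk2 and Ldhd are ringed in all 3 comparisons.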

How the data were processed

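RNA was sequenced from 22 tumours, 12 in set 1 and 10 in set 2. The authors deposited, for each set, 1 table of normalized signal per transcript or gene; the submitters' processing notes name TopHat2, featureCounts, DESeq2 and mm10. The labels do not state whether strand was kept, so reads of overlapping or antisense genes cannot be told apart. Multiplying a column by its own factor gave back whole reads, within 0.01 reads for 100% of values in every column. The tables were scaled separately, so tests stay within a set. In set 1, which had 33068 rows, the transcript row with the highest mean was used per gene. Symbols that a spreadsheet had turned into dates were restored by accession in 53 rows of set 1 and left out in 27 rows of set 2.

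A gene was kept if its value reached 10 in 2 or more tumours of set 1, or in 3 or more of set 2, which left 16108 and 15625 genes. They were fitted with limma 3.58.1 (with trend, log2 of value + 1, all groups of a set in 1 fit, two-sided, R 4.3.3). The procedure was also run on simulated data in which all genes had the same dispersion setting. The tumours differ from that setting, so the run does not measure missed or false calls here. Alternatives were TMM scaling, edgeR 4.0.16 and DESeq2 1.42.0 on the recovered reads, a pseudocount of 10, no filter, only the groups compared, sums over transcript rows, JAX-named tumours only, and each tumour left out. The members and lists were chosen with earlier results of these data known. For each member the 2 genes nearest in pattern are named, apart from 1 that is not reported here, and pathway genes where called in at least 2 of the 3 driver comparisons; the other pathway genes named were picked out after their values were seen.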

Additional observations from a re-analysis of the deposited data

How the results depend on the processing

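Over all 8 comparisons, the 64 member differences had 920 alternative values: 820 kept direction and side of the threshold, 20 lost a call, 8 gained one and 72 changed sign. In luc tumours of set 1, the count of members called was 0, with 2 under DESeq2 and 1 with only the groups compared. In lucOS tumours of set 1 it was 0, with 1 under DESeq2. In lucOS tumours of set 2 it was 1, with 0 under TMM scaling, 0 under edgeR, 0 with JAX names only, 3 under DESeq2, and 0 to 1 leaving out each tumour. In the average it was 2, with 1 under TMM scaling, 1 under edgeR, and 0 to 3 leaving out each tumour. The cause was not tested. No paired analysis was possible because the labels give no replicate numbers that groups share.

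Signs changed for Ldha in luc tumours of set 1, at 0.023 under edgeR and 0.013 under DESeq2. They changed for Slc2a1 in lucOS tumours of set 1, at 0.032 under TMM scaling, 0.67 under edgeR and 0.65 under DESeq2. In lucOS tumours of set 2, Ldha was -0.11 with JAX names only, and Slc2a2 was 0.65 under edgeR and 0.65 under DESeq2. For lucOS minus luc, Slc2a2 was 0.00916 under edgeR and 0.025 under DESeq2 in β-catenin tumours of set 1, and 0.55 under edgeR and 0.55 under DESeq2 in those of set 2. The interaction for Pklr was 0.34 under edgeR and 0.36 under DESeq2. Leaving out each tumour, the range for β-catenin against p53 in luc tumours of set 1 was -0.075 to 1.54 for Hk2, -0.38 to 0.58 for Aldoa and -0.38 to 0.027 for Ldha. The range in lucOS tumours of set 1 was -0.999 to 1.49 for Hk1, -0.26 to 0.93 for Aldoa, -1.63 to 1.40 for Slc2a1, -0.63 to 1.85 for Slc2a2 and -3.37 to 0.42 for Eno2. It was -0.079 to 0.23 for Ldha and -1.42 to 0.34 for Slc2a2 in lucOS tumours of set 2. The range in the average was -0.94 to 0.31 for Hk1, -0.086 to 0.51 for Aldoa and -1.38 to 0.14 for Slc2a1. It was -1.06 to 0.31 for Hk1, -1.56 to 0.053 for Hk2, -0.54 to 0.42 for Aldoa, -0.67 to 0.19 for Pkm, -0.11 to 0.18 for Ldha and -0.66 to 0.028 for Slc2a1 for lucOS minus luc in p53 tumours of set 1. The range in β-catenin tumours of set 1 was -0.52 to 1.97 for Hk1, -0.42 to 0.77 for Aldoa, -1.26 to 1.95 for Pklr, -0.81 to 0.46 for Pkm, -0.47 to 0.16 for Ldha, -0.94 to 2.10 for Slc2a1 and -1.65 to 0.83 for Slc2a2. It was -0.55 to 0.45 for Aldoa, -0.29 to 1.07 for Pklr and -1.29 to 0.47 for Slc2a2 in β-catenin tumours of set 2. The range in the interaction was -0.12 to 2.37 for Hk1, -0.34 to 0.85 for Aldoa, -1.90 to 1.31 for Pklr, -0.52 to 0.75 for Pkm, -0.53 to 0.10 for Ldha and -0.52 to 2.52 for Slc2a1. No member difference between lucOS and luc, and none in the interaction, was called under any of these alternatives.

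The 24 differences of named pathway genes had 320 alternative values, of which 50 lost a call, 6 gained one and 1 changed sign. With JAX names only, which leaves 1 p53 tumour in set 2, Pdk2 was still called (5.41, adjusted p = 0.0195). Not called there were Fbp1 (1.37), Slc2a4 (-1.17), Pfkfb1 (1.83), Eno2 (-2.05), Slc16a7 (1.55) and Ldhd (1.54), all with the same sign as before. Over all genes, lucOS tumours of set 1 had 678 calls, 418 under edgeR, 2031 under DESeq2, 19 with only the groups compared and 76 to 953 leaving out each tumour. Those of set 2 had 2656, 23 with JAX names only and 1148 to 2228 leaving out each tumour, and luc tumours of set 1 had 2431 and 812 to 1968. Groups of 2 to 4 tumours limit the precision.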
